A study of Sus scrofa with 6 samples.

Results

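Laminins are the large cross-shaped glycoproteins on which basement membranes, the thin matrix sheets under epithelia and around seminiferous tubules, are built. Each laminin is a trimer of an alpha, a beta and a gamma chain, every chain the product of its own gene. The short arms join trimers into a network, and the end of the alpha chain binds integrins and dystroglycan on the cell surface. In the testis the tubule's basement membrane is laid down by Sertoli cells and peritubular myoid cells, and spermatogonia, the germ cells that start sperm production, sit on it. The genes followed here were 9 laminin chain genes, taken by their symbols from a table of 29884 genes: the alpha chain genes LAMA1, LAMA2, LAMA3, LAMA4 and LAMA5, the beta chain genes LAMB1 and LAMB2, and the gamma chain genes LAMC1 and LAMC3.

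RNA sequencing was done on 6 libraries of total RNA from porcine (Sus scrofa) testis cells labelled as primitive spermatogonia. The RA group (3 libraries) had received 2 umol/L all-trans-retinoic acid, the vitamin A derivative that starts spermatogonial differentiation, and the control group (3 libraries) 0.1% ethanol in its place. The labels name no age, breed, treatment time or purification, and they do not say if replicates were different animals, different cultures or repeat preparations, so a p-value here reflects library-to-library spread that may be technical. The comparison asked which laminin chains respond to retinoic acid in culture; in mouse F9 teratocarcinoma cells, a textbook system, retinoic acid raises the genes of the chains alpha 1, beta 1 and gamma 1.

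Read totals behind the values ranged from 63836470 to 87520891 in RA libraries and from 62084199 to 79752197 in control libraries. All 8 retinoic acid response genes looked at were higher in RA, DHRS3 among them at 132 ± 12.5 FPKM (fragments scaled to gene length and to the library's read total) in RA and 1.28 ± 0.168 in control (SD, n = 3 libraries each). The library RA replicate 2 was the least like its group, with a mean correlation across genes of 0.984, against 0.989 to 0.995 for the other 5 libraries within their groups, and results are also given without it below. The cells were not germ cells alone by their transcripts: all 13 germ cell markers listed were detected, with a summed level of 187 to 197 FPKM in RA and 226 to 234 FPKM in control, but the 14 Sertoli cell markers summed to 10530 to 11378 FPKM in RA and 10497 to 11054 FPKM in control, mostly from CLU. The 14 markers of peritubular myoid cells and fibroblasts summed to 2552 to 2829 FPKM in RA, against 1274 to 1418 FPKM in control, and no marker on these 3 lists was at 0 in every library. In the peritubular sum ACTA2 (786 FPKM in RA, 225 in control), TAGLN (529 and 189) and DCN (293 and 38.9) differed most. By the test given below, 9 of these 14 markers were higher in RA, 3 lower and 2 not called (13.9% and 12.0% of all genes tested were higher and lower). The 3 lower markers were POSTN (log2 change -1.10), PDGFRA (-0.85) and THY1 (-0.42). DCN and these 3 were chosen with their values known. In such bulk RNA, fewer cells of a type and less RNA per cell cannot be told apart.

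Retinoic acid was followed by lower levels of 5 of the 9 laminin genes, LAMA1, LAMA3, LAMA4, LAMB1 and LAMC1, and by higher levels of 0 (limma on log2(FPKM + 1), Benjamini-Hochberg adjusted p under 0.05 over the 14567 genes whose mean reached 0.5 FPKM, a filter that all 9 members passed). Over all genes tested, 12.0% were called lower and 13.9% higher, 25.9% in all. On recovered reads, edgeR called the same 5 members lower (11.6% of all genes tested), and DESeq2 called 6 lower (14.9%), LAMA2 being the sixth. The 4 genes not called were LAMA2, LAMA5, LAMB2 and LAMC3; none of the 3 members with a change above 0 had an unadjusted p under 0.05, and the smallest was 0.0776, for LAMB2. The median log2 change was -0.36 over the members and -0.01 over all genes tested. In 6 members every RA library lay below every control library, as in 24.0% of all genes, and in 1 member, LAMB2, every RA library lay above every control library, as in 23.9%.

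**Figure D1:**
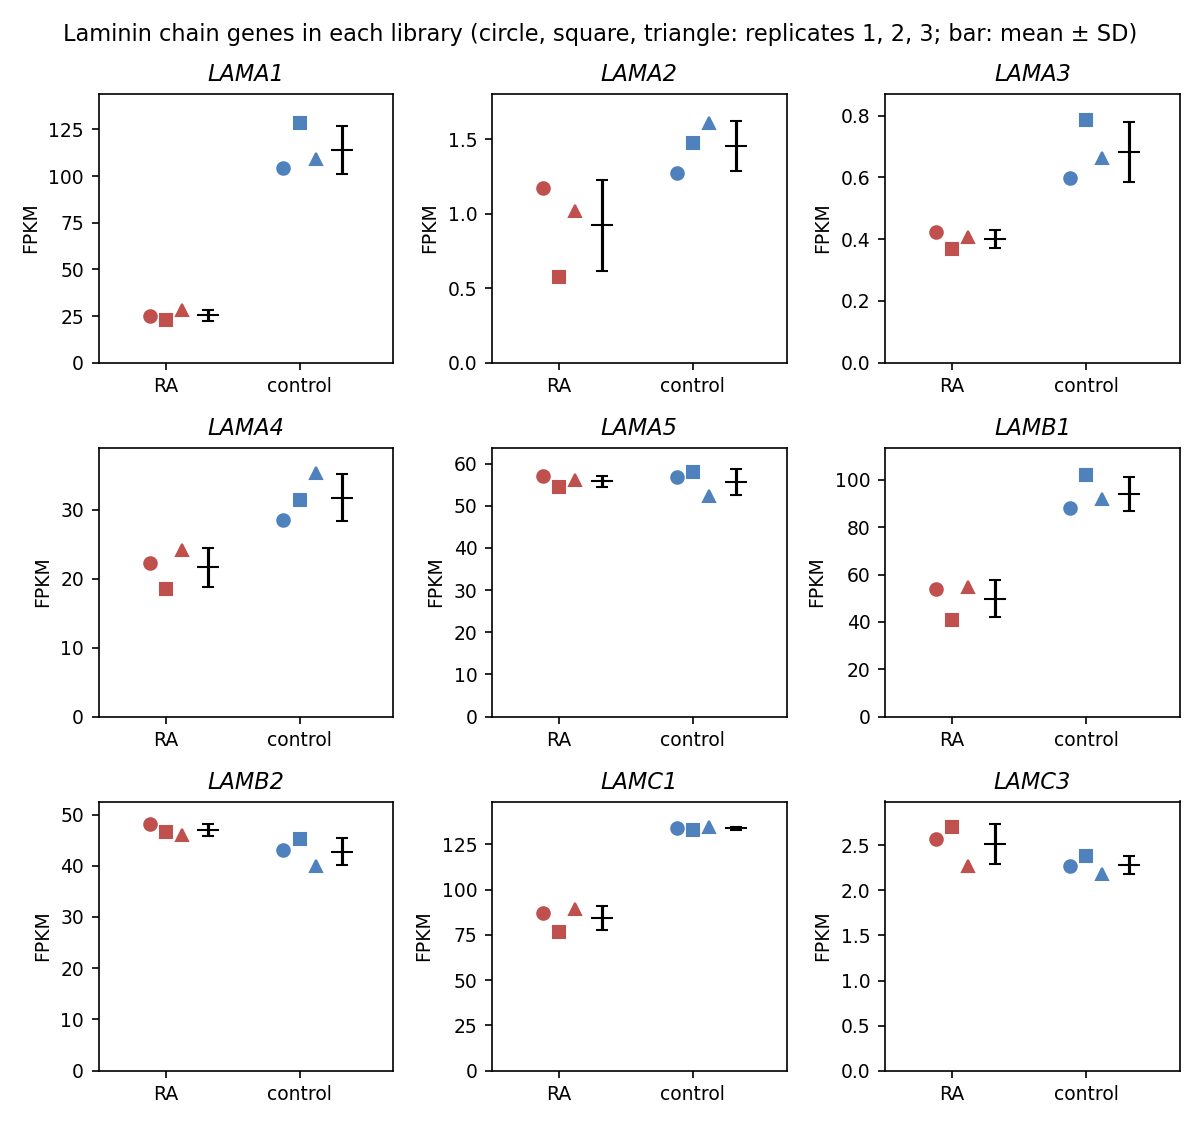
FPKM of each laminin gene in each library, RA left and control right; circles, squares and triangles are replicates 1, 2 and 3 and the bar is the mean ± SD. The groups are apart in 7 panels and overlap for LAMA5 and LAMC3; RA replicate 2 is the lowest RA library in 7 of the 9 panels.

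Among the alpha chains, which decide what receptors a laminin binds, LAMA1 fell most. LAMA1 encodes the alpha chain of the laminin first purified from a mouse tumour matrix and typical of embryonic basement membranes. It lies on chromosome 6 from 100332843 to 100468457. Its level was 24.9, 22.9 and 28.4 FPKM in RA replicates 1, 2 and 3, against 104, 128 and 109 FPKM in control replicates 1, 2 and 3. The groups were far apart, with the highest RA library well under the lowest control library. The means were 25.4 ± 2.79 FPKM in RA and 114 ± 12.7 FPKM in control (SD, n = 3 each), a ratio of 0.223, and the log2 change was -2.12 ± 0.10 (SE, limma adjusted p = 1.90e-05). The values rest on 16002 to 20788 recovered reads in RA libraries and 64676 to 92882 in control libraries. In the authors' deposited table the log2 fold change of LAMA1 was -2.14.

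LAMA4, whose chain is best known from the basement membranes of blood vessels and other mesenchymal cells, fell less (chromosome 1, 78071990 to 78224564). It was at 22.3, 18.6 and 24.1 FPKM in RA replicates 1, 2 and 3 and at 28.5, 31.4 and 35.3 FPKM in control replicates 1, 2 and 3. RA replicate 2 was the lowest, and the groups did not overlap. The log2 change was -0.53 ± 0.11 (SE, limma adjusted p = 0.0122), and the call was lost at the margin without control replicate 2 (limma adjusted p = 0.0508) or without control replicate 3 (0.0510). The 11 endothelial markers summed to 41.7 to 45.6 FPKM in RA and 39.4 to 42.2 FPKM in control, but single markers moved both ways: of 9 tested, 2 were higher and 2 lower in RA. The shares over all genes tested were 13.9% higher and 12.0% lower. EMCN (log2 change -0.96, limma adjusted p = 0.00235) and ERG (-0.62, 0.0119) were lower, and ENG (0.75, 0.00163) and SOX18 (0.39, 0.0458) were higher; EMCN, ERG and SOX18 were chosen with their values known. SOX18 was called higher in RA neither by edgeR on recovered reads (edgeR adjusted p = 0.0529) nor by limma without RA replicate 2 or 3 or any 1 control replicate (limma adjusted p up to 0.150). The part of endothelial cells in the LAMA4 change was not tested.

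LAMA5, the alpha chain most widely made by adult epithelia, was at a like level in both groups (chromosome 17, 61698370 to 61747795). It was at 57.0, 54.4 and 56.0 FPKM in RA replicates 1, 2 and 3, against 56.8, 58.1 and 52.2 FPKM in control replicates 1, 2 and 3. The 3 RA libraries lay inside the control range. The log2 change was 0.00 with a 95% interval from -0.14 to 0.15 (limma adjusted p = 0.972). Its values rest on 40972 to 57168 reads in RA libraries and 37167 to 51893 in control libraries.

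LAMA2, the alpha chain of muscle and peripheral nerve basement membranes, and LAMA3, the alpha chain of the epithelial anchoring laminin, were scarce. LAMA2 (chromosome 1, 33765412 to 34359741) was at 1.17, 0.577 and 1.02 FPKM in RA replicates 1, 2 and 3 and at 1.27, 1.47 and 1.61 FPKM in control replicates 1, 2 and 3. RA replicate 2 held the lowest level, 52.8% of the mean of the other RA libraries, and the groups were only just apart. Its log2 change was -0.36 with a 95% interval from -0.68 to -0.05, and it was not called (limma adjusted p = 0.0842). LAMA3 (chromosome 6, 108548818 to 108805700) was at 0.424, 0.368 and 0.407 FPKM in RA replicates 1, 2 and 3, against 0.597, 0.786 and 0.663 FPKM in control replicates 1, 2 and 3. All RA libraries lay below all control libraries, on 272 to 388 reads in RA and 431 to 623 in control. The ratio of means was 0.586, and the log2 change, which the pseudocount of 1 shrinks at such levels, was -0.26 (limma adjusted p = 0.0489). That call was marginal: it was lost without any single library, with adjusted p-values from 0.0635 to 0.153 (limma), while edgeR on recovered reads gave a log2 change of -0.77 (edgeR adjusted p = 0.00972).

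The beta chains wind with an alpha and a gamma chain into the stem of the trimer. LAMB1, the beta chain of early basement membranes, fell (chromosome 9, 107670120 to 107747242). It was at 53.7, 40.8 and 54.9 FPKM in RA replicates 1, 2 and 3, against 88.0, 102 and 91.9 FPKM in control replicates 1, 2 and 3. The groups did not overlap, and RA replicate 2 was again the lowest. The means were 49.8 ± 7.81 FPKM in RA and 94.1 ± 7.32 FPKM in control (SD, n = 3 each). Its log2 change was -0.91, with an SE of 0.12 (limma adjusted p = 0.00147). LAMB2, the beta chain of synapses, kidney glomeruli and mature basement membranes, was not called (chromosome 13, 31738282 to 31750623). It was at 48.2, 46.6 and 46.0 FPKM in RA replicates 1, 2 and 3 and at 43.0, 45.3 and 40.0 FPKM in control replicates 1, 2 and 3. The RA libraries lay just above the control libraries, and the log2 change of 0.13 (95% interval -0.02 to 0.29) was not called (limma adjusted p = 0.167).

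LAMC1 encodes the gamma chain shared by most laminins and was the most abundant member in both groups (chromosome 9, 124283668 to 124405967). It was at 87.3, 76.9 and 89.2 FPKM in RA replicates 1, 2 and 3, against 134, 133 and 135 FPKM in control replicates 1, 2 and 3. The control libraries were nearly equal, and all RA libraries lay well below them. The means were 84.4 ± 6.62 FPKM in RA and 134 ± 0.935 FPKM in control (SD, n = 3 each). Its log2 change was -0.66, with an SE of 0.07 (limma adjusted p = 0.000547). LAMC3, a gamma chain of restricted distribution, was at 2.56, 2.71 and 2.28 FPKM in RA replicates 1, 2 and 3 and at 2.27, 2.38 and 2.18 FPKM in control replicates 1, 2 and 3 (chromosome 1, 271004423 to 271071223). The groups overlapped, and the log2 change of 0.10 (95% interval -0.12 to 0.32) was not called (limma adjusted p = 0.457).

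**Figure D2:**
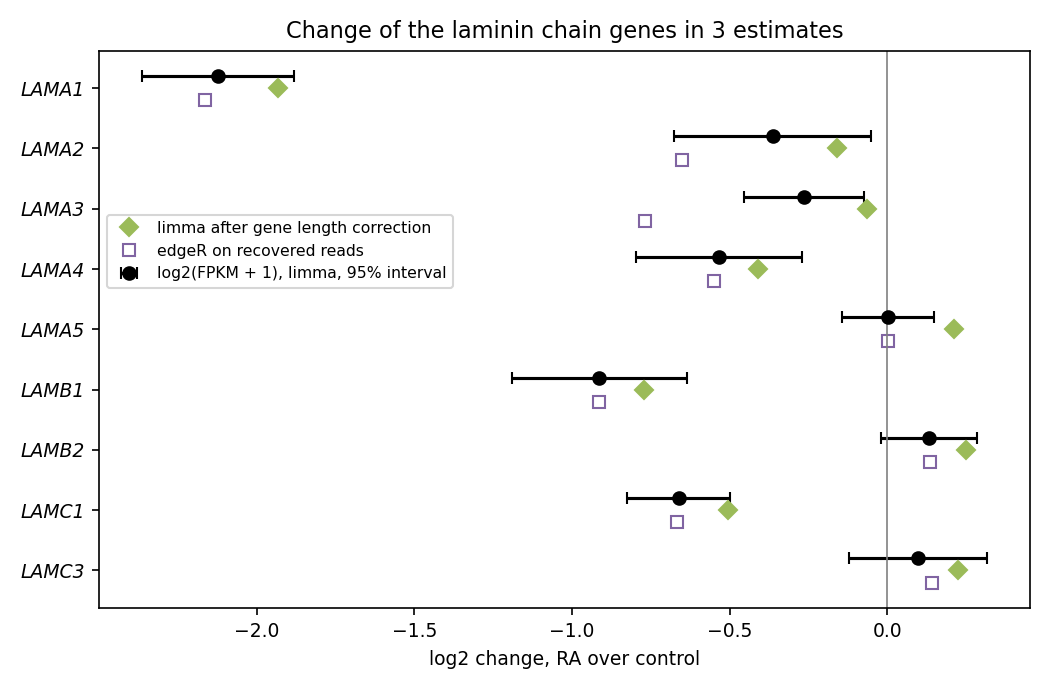
Log2 change of each laminin gene, RA over control: black points are limma estimates on log2(FPKM + 1) with 95% intervals, green diamonds the same after a correction for gene length, and open squares edgeR estimates on recovered reads. LAMA1 (-2.12), LAMB1 (-0.91), LAMC1 (-0.66) and LAMA4 (-0.53) are below 0 in all 3 estimates; LAMA3 is near 0 after the length correction.

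In the authors' deposited tables, which list genes they called, 5 of the 9 members appeared, LAMA1, LAMA3, LAMA4, LAMB1 and LAMC1, all lower in RA. These are the 5 genes called here, from the same 6 libraries. The deposited tables of called genes hold 4377 rows, where the FPKM table holds 29884 genes. The log2 fold change in the authors' deposited table was -0.89 for LAMB1, -0.74 for LAMA3, -0.64 for LAMC1 and -0.52 for LAMA4.

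The order of levels changed along with these falls. FPKM is scaled to gene length, so levels of different genes can be set side by side. The orders and class shares were not corrected for the trend of the RA change with gene length that is described below. In RA the order was LAMC1, LAMA5, LAMB1, LAMB2, LAMA1, LAMA4, LAMC3, LAMA2 and LAMA3; the library ranges of LAMA5 and LAMB1, of LAMB1 and LAMB2, and of LAMA1 and LAMA4 overlapped, and those of the other neighbours did not. In control the order was LAMC1, LAMA1, LAMB1, LAMA5, LAMB2, LAMA4, LAMC3, LAMA2 and LAMA3, with no overlap between neighbours. LAMA1 thus had rank 5 in RA and rank 2 in control.

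Taken by class, alpha chain transcripts summed to 104 ± 6.71 FPKM in RA and 203 ± 14.9 FPKM in control, beta chain transcripts to 96.8 ± 8.07 FPKM in RA and 137 ± 9.26 FPKM in control, and gamma chain transcripts to 87.0 ± 6.44 FPKM in RA and 136 ± 0.833 FPKM in control (SD, n = 3 each). LAMA1 made up 89.1% of the difference in the alpha sum. LAMA1 was 23.5%, 23.7% and 25.8% of alpha chain FPKM in RA replicates 1, 2 and 3, against 54.5%, 58.3% and 54.8% in control replicates 1, 2 and 3. LAMA5 was 53.7 ± 2.63% of it in RA and 27.4 ± 1.92% in control, and LAMA4 20.7 ± 1.40% in RA and 15.6 ± 1.85% in control. The most abundant alpha chain transcript was LAMA5 in each RA library and LAMA1 in each control library.

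The ratio of LAMA1 to LAMA5 was 0.436, 0.421 and 0.507 in RA replicates 1, 2 and 3, against 1.84, 2.21 and 2.09 in control replicates 1, 2 and 3. The ratio of LAMB1 to LAMB2 was 1.11, 0.875 and 1.19 in RA replicates 1, 2 and 3 and 2.05, 2.26 and 2.30 in control replicates 1, 2 and 3. Both ratios were lower in every RA library than in every control library. These sums, shares and ratios are descriptions of transcript levels with no test, and they do not measure assembled trimers.

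**Figure D3:**
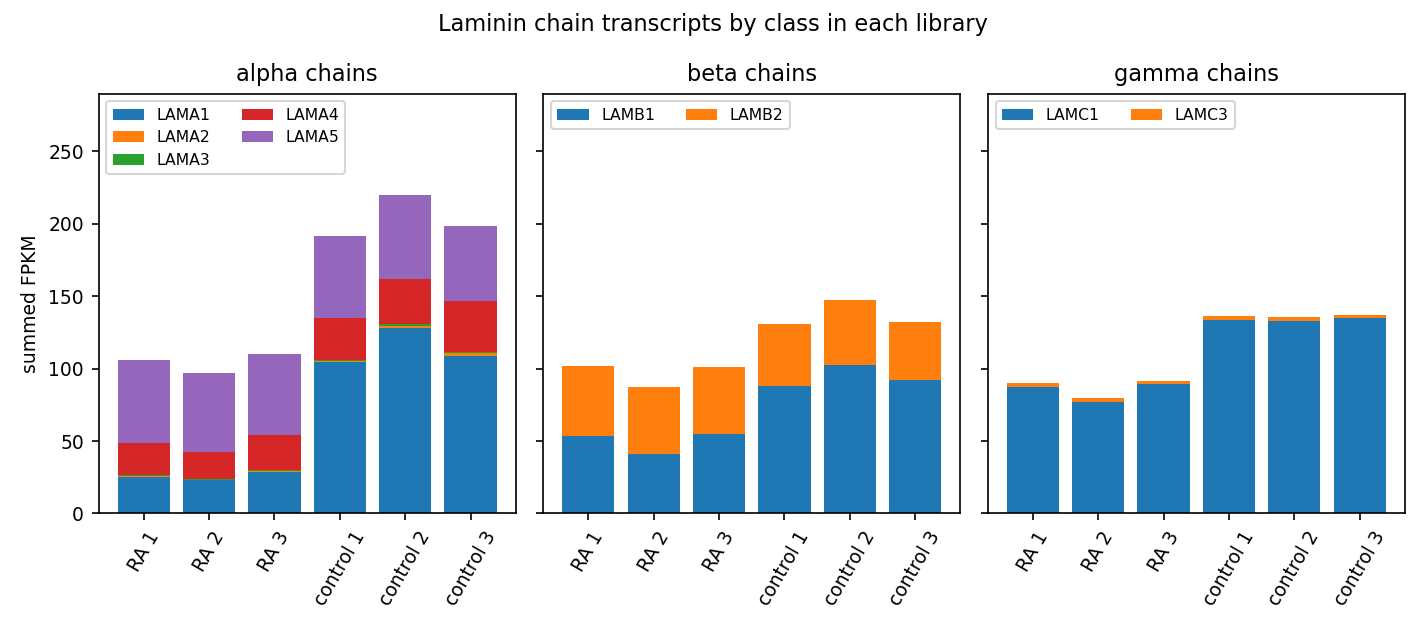
Stacked FPKM of the alpha, beta and gamma chain genes in each library, RA libraries left and control libraries right; each color is a gene. The alpha sum is 104 FPKM on average in RA and 203 FPKM in control, and LAMA1 is the part of the alpha bar that differs most.

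All 9 laminin genes are long, from 5656 to 11464 bases in the deposited table, against a median of 3208 bases for the genes tested. In these libraries the change in RA went with gene length: the median log2 change was 0.12 in the shortest of 5 equal classes of genes by length and -0.17 in the longest. Among the 3185 genes at least as long as the shortest member, LAMB2, 15.4% were called lower and 6.03% higher (limma). After a lowess correction of each library for length, LAMA1 (log2 change -1.93), LAMB1 (-0.77), LAMC1 (-0.50) and LAMA4 (-0.41) were still called lower (limma adjusted p at most 0.00735), where 13.3% of all genes were lower and 13.9% higher. LAMA3 was not (log2 change -0.06, limma adjusted p = 0.671), and LAMB2 was called higher (0.25, limma adjusted p = 0.0392). Without RA replicate 2, the calls of LAMA1, LAMA4, LAMB1 and LAMC1 held (limma adjusted p at most 0.00534), and LAMA3 was at 0.0945.

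**Figure D4:**
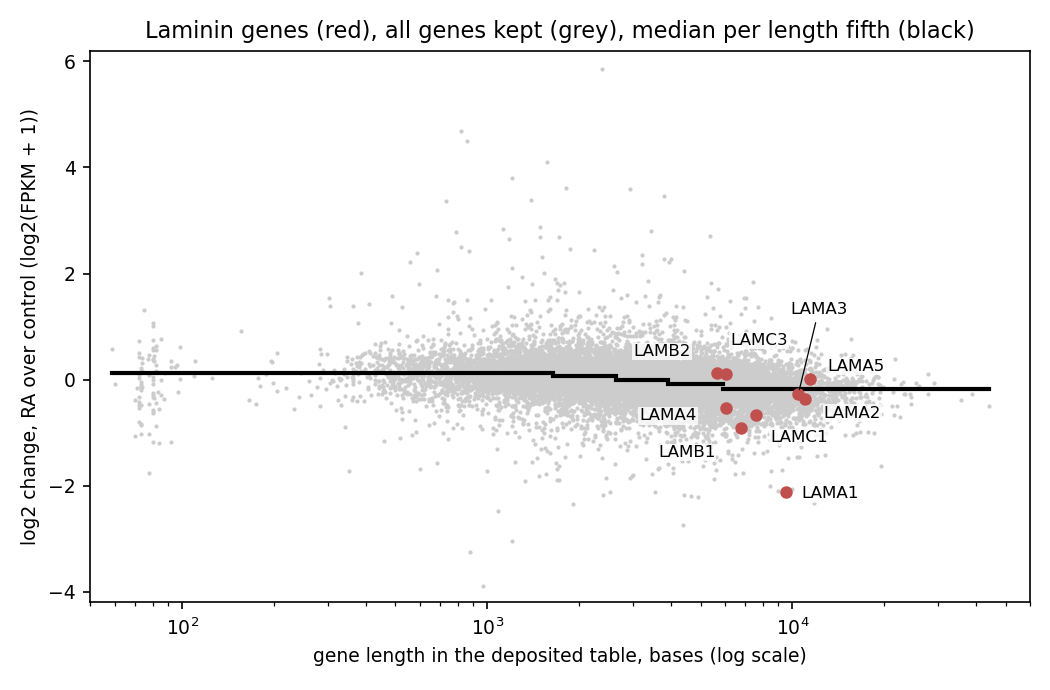
Log2 change of every gene tested (grey) and of the laminin genes (red, labelled) against gene length on a log scale; black lines are the median change in each of 5 equal classes of genes by length. The medians step down from 0.12 to -0.17 with length, LAMA5, LAMB2 and LAMC3 lie above the line of their class, and LAMA1 (-2.12) lies far below it.

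LAMB1 and LAMB4 are neighbours, 30600 bases apart on chromosome 9. LAMB4 was at 0.0548 FPKM in RA and 0.0986 FPKM in control, too low to test. LAMB3, the beta chain of the epithelial anchoring laminin, was at 0.609 ± 0.167 FPKM in RA and 0.674 ± 0.162 FPKM in control (SD, n = 3 each; limma adjusted p = 0.730).

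The genes most like the leading chain of each class were sought over the 6 libraries by the root mean square difference of log2(FPKM + 1) values, each gene centred on its own mean. Nearest to LAMA1 were UNC13A (0.0994), SRGAP3 (0.123) and P3H2 (0.131), the last a prolyl hydroxylase that acts on basement membrane collagen. UNC13A was at 5.57 ± 0.0992 FPKM in RA and 26.6 ± 1.39 FPKM in control, and P3H2 at 6.39 ± 0.373 FPKM in RA and 30.9 ± 1.12 FPKM in control (SD, n = 3 each). Nearest to LAMB1 were SGMS1 (0.0405), CNTN3 (0.0426) and USP13 (0.0459), and nearest to LAMC1 were ARHGEF10 (0.0334), SYNC (0.0350) and RNF13 (0.0358). Within the family, LAMB2 and LAMC3 were the closest pair (0.0558), both with little change, and LAMA4 and LAMC1 were the closest pair of falling chains (0.113).

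Laminin receptors moved in both directions: of 18 tested among 20 found in the table, 4 were lower and 4 higher in RA, with a median log2 change of -0.03. Over all genes tested, 12.0% were lower and 13.9% higher, and the median was -0.01. ITGA6, the integrin alpha subunit that binds laminins and marks undifferentiated spermatogonia, was at 24.2, 15.1 and 26.2 FPKM in RA replicates 1, 2 and 3, against 66.4, 74.3 and 73.8 FPKM in control replicates 1, 2 and 3 (log2 change -1.70, limma adjusted p = 0.000595). Its groups were wide apart. DAG1, which encodes dystroglycan, the receptor for the globular end of alpha chains, was at 94.9, 92.4 and 98.0 FPKM in RA replicates 1, 2 and 3 and at 155, 161 and 159 FPKM in control replicates 1, 2 and 3 (log2 change -0.73, limma adjusted p = 0.000110). ITGB4, the partner of ITGA6 in epithelial anchoring junctions (-0.70), and ITGA7 (-0.40) were also lower; ITGA7 was not called without control replicate 1 (limma adjusted p = 0.0686) or without control replicate 2 (0.0792). The heparan sulfate proteoglycans SDC4 (0.90) and SDC2 (0.83), the adhesion receptor MCAM (0.53) and RPSA (0.48), a ribosomal protein also described as a laminin receptor, were higher. ITGB1, the common beta subunit of laminin-binding integrins, is given although it passed no rule for naming; its level was 89.7, 47.1 and 96.0 FPKM in RA replicates 1, 2 and 3, against 86.3, 92.4 and 102 FPKM in control replicates 1, 2 and 3 (limma adjusted p = 0.343). RA replicate 2 was far below the other libraries for this gene.

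Of 28 other basement membrane genes tested among 34 found, 8 were higher and 8 lower in RA (median log2 change -0.06), where 13.9% of all genes tested were higher and 12.0% lower. TINAGL1, a secreted glycoprotein of the matrix, had the largest change of the 28, with 426, 439 and 389 FPKM in RA replicates 1, 2 and 3, against 81.4, 73.0 and 70.1 FPKM in control replicates 1, 2 and 3 (log2 change 2.47, limma adjusted p = 2.16e-06). The network collagen chains COL4A1 (157 ± 7.11 FPKM in RA and 118 ± 8.28 in control; log2 change 0.41) and COL4A2 (182 ± 6.64 FPKM in RA and 136 ± 7.11 in control; 0.42) were higher, as were COL18A1 (0.85), LTBP3 (0.71) and perlecan, HSPG2 (0.48); COL4A1 was chosen with its values known. Lower were SMOC1 (-1.67), agrin, AGRN (-1.38), which ties laminin to dystroglycan, FRAS1 (-0.86), SPARC (-0.61) and NID2 (-0.40), a nidogen that links laminin gamma chains to collagen. AGRN was at 12.5, 12.6 and 12.9 FPKM in RA replicates 1, 2 and 3 and at 33.7, 37.1 and 32.9 FPKM in control replicates 1, 2 and 3.

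Of the 9 proteases tested, among 15 found, that are known to cut laminin chains or their partners, 5 were higher and 3 lower in RA (13.9% and 12.0% of all genes tested). MMP2 (0.88), MMP14 (0.67), BMP1 (0.54), CTSB (0.48) and PLAU (0.46) were higher, and PLAT (-0.86), MMP9 (-0.57) and TLL2 (-0.40) were lower on the log2 scale. Without control replicate 2 only PLAT of the lower 3 was called, with limma adjusted p-values of 0.122 for MMP9 and 0.0576 for TLL2; MMP9 was not called without control replicate 1 (0.0731) or 3 (0.0881) either, nor with no filter on low values (0.0845). After the length correction TLL2 was not called (log2 change -0.26, limma adjusted p = 0.0993). Of 15 genes tested that take part in the glycosylation of dystroglycan, 2 were higher and 2 lower, numbers near the shares over all genes tested (13.9% higher and 12.0% lower). B3GALNT2, which builds part of its sugar chain, was at 3.11 ± 0.512 FPKM in RA and 5.35 ± 0.444 FPKM in control (SD, n = 3 each; log2 change -0.63, limma adjusted p = 0.00737). POMT1 (-0.33) was lower, but not without RA replicate 1 or 3 or control replicate 1 or 2 (limma adjusted p up to 0.0860). POMGNT2 (0.34) was higher, but not without RA replicate 1 or any 1 control replicate (up to 0.0822), and DPM3 (0.47) was higher, but not without control replicate 1 or 2 (up to 0.0552). Of 4 netrins tested among 6 found, which share the laminin short-arm fold, NTNG1 was higher (0.58) and NTN4, which binds laminin gamma chains, lower (-0.53); NTN4 was not called without control replicate 2 (limma adjusted p = 0.0669) or 3 (0.0578).

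**Figure D5:**
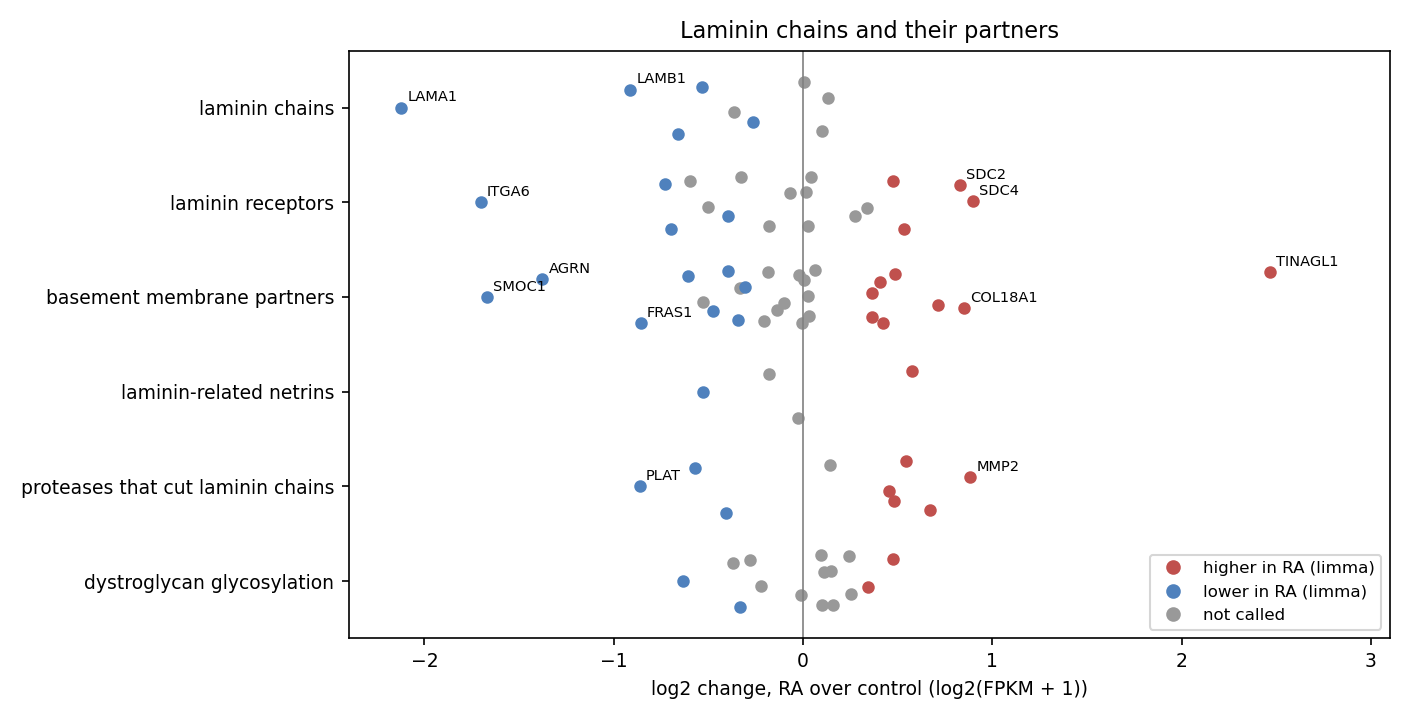
Log2 change, RA over control, of the laminin chains and of the tested genes on each partner list; red points were called higher, blue points lower (limma) and grey points not called, and called genes with a change of at least 0.8 in size are named. The laminin row holds no red point, while each partner row holds red and blue points. Of all genes tested 13.9% were called higher, and of genes at least as long as the shortest laminin gene 6.03%.

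Peritubular and Sertoli markers moved beside the laminin genes. Of the 14 peritubular myoid and fibroblast markers, 9 were higher and 3 lower in RA, with ACTA2, the smooth muscle actin, at 786 ± 90.0 FPKM in RA and 225 ± 25.3 FPKM in control (SD, n = 3 each). Of the 14 Sertoli cell markers, 5 were higher and 7 lower. CLU, the most abundant, was at 9727 ± 342 FPKM in RA and 9242 ± 233 FPKM in control. It was not called (limma adjusted p = 0.659). The next most abundant, VIM and CITED1, moved opposite ways, with log2 changes of -0.92 and 1.93. Of the 13 germ cell markers, 0 were higher and 8 lower. The shares over all genes tested were 13.9% higher and 12.0% lower. Of the 10 macrophage markers, 4 were higher and 0 lower, with a summed level of 55.8 to 80.2 FPKM in RA and 47.9 to 53.8 FPKM in control. The part of these cell types in the laminin changes was not tested.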

How the data were processed

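The 6 libraries were grouped by their titles into RA and control (3 each). The authors deposited FPKM values for each gene, beside its length, type and position, per the file headers. For genes they called, the deposited tables give raw counts per library, a log2 fold change (RA over control) and a p-value with its FDR, per the file headers. No source used here names the aligner, counter, strand setting, build or the authors' test. Coordinates are those of the deposited table; for 9 of 9 members they equal those of RefSeq on the Duroc pig assembly. The antisense rows that overlap LAMA1, LAMB1 and LAMC3 did not reach the filter.

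The test was limma 3.58.1 (R 4.3.3) on log2(FPKM + 1), with a trend in the prior variance and no covariate besides treatment; p-values are two-sided and adjusted by Benjamini-Hochberg over the 14567 genes that reached a mean FPKM of 0.5; the step was tested on simulated data. Multiplying FPKM by length and library total recovered whole numbers of reads (tolerance 0.05) for 99.8% to 99.9% of non-zero values, and edgeR 4.0.16 and DESeq2 1.42.0 ran on these reads as alternatives. No library was a copy of another (mean chi-square per gene between replicates at least 15.4). Members, lists and tests were chosen with earlier results of these data known. Genes named are all members and other laminin rows, up to 5 called genes per direction of each partner list by smallest p, 8 response genes, the 3 most abundant markers of a cell type and the 3 genes nearest each leading chain; not all of these are printed, and some genes of the lists and the family are not reported here.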

Additional observations from a re-analysis of the deposited data

How the results depend on the processing

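LAMA1, LAMB1 and LAMC1 were called lower in RA under all 18 alternatives, with log2 changes from -2.20 to -1.93, from -0.99 to -0.77 and from -0.75 to -0.50. LAMA4 was called under 16 of 18 and LAMA3 under 6 of 17 (a filter of mean FPKM 1 leaves it out); LAMA3 was not called with no filter (limma adjusted p = 0.0531), quantile normalization (0.0792), robust moderation (0.0517) or the length correction (0.671). LAMA2 was called by DESeq2 alone (DESeq2 adjusted p = 0.0449). LAMC3 and LAMA5 were called under none, and the sign of the LAMA5 change was the same in 15 of 18. The count of laminin genes higher in RA was 1 (LAMB2) with the length correction. That correction raised the log2 change of every member, and that of LAMB2 went from 0.13 to 0.25. The cause of the length trend was not tested. Leaving out each library in turn gave 3 to 4 laminin genes lower, 3 without control replicate 2 or 3. Over all genes it gave 1202 to 2258 higher and 1005 to 2256 lower, the highest counts without RA replicate 2. With the replicate number as a block, 4 laminin genes were lower and 0 higher, and LAMA3 had a limma adjusted p of 0.102. Over all genes the block gave 1610 higher and 1405 lower. Of the other genes named, POMT1 (limma adjusted p = 0.0511) and SOX18 (0.0914) were not called with the block; SOX18 was also not called with no filter (0.106) or the length correction (0.0962). Libraries of the same number showed no steady joint deviation from their group means (correlations of -0.21, -0.09 and 0.34 for numbers 1, 2 and 3). An unlike pair, RA replicate 2 with control replicate 1, reached 0.37. Deviations from a group mean offset one another within the group, so these correlations cannot exclude pairing. The labels state no pairs, so the numbers are not taken as pairs.

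Shares from reads not divided by length moved by construction. Of alpha chain reads, LAMA5 was then 62.3% in RA and 32.9% in control, LAMA4 12.8% in RA and 9.96% in control, LAMA3 0.407% in RA and 0.366% in control, and LAMA2 0.976% in RA and 0.824% in control. LAMB1 was 55.8% in RA and 72.5% in control of beta chain reads, LAMB2 44.2% in RA and 27.5% in control. LAMC1 was 97.7% in RA and 98.7% in control of gamma chain reads, LAMC3 2.34% in RA and 1.34% in control. LAMA3, with 272 to 623 reads a library, is the member most limited by depth.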
